A study of Mus musculus with 65 samples.

Results

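The genes described here are 8 mouse genes of RANK signalling and of osteoclast-type cell fusion: Dcstamp, Acp5, Ctsk, Atp6v0d2, Tnfsf11, Tnfrsf11a, Tnfrsf11b and Calcr. They were found as the probe sets that the platform annotation pairs with just 1 of these genes, which gave 12 probe sets, and they are 8 of the 18194 genes measured. The set was chosen by the measured level of Dcstamp, which was higher in tumours of irradiated heterozygous hosts, and the question was whether it moves with the other members. Differences that involve the tumours of irradiated heterozygous hosts are therefore given as description, with no test.

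RANK, the receptor encoded by Tnfrsf11a, is activated by its ligand RANKL, encoded by Tnfsf11, and the secreted decoy receptor osteoprotegerin, encoded by Tnfrsf11b, binds RANKL and keeps it from RANK. In bone, RANK signalling turns precursors of the macrophage lineage into osteoclasts, which fuse with the help of the membrane protein DC-STAMP (Dcstamp) and of the proton pump subunit d2 (Atp6v0d2). They resorb bone with cathepsin K (Ctsk) and tartrate-resistant acid phosphatase (Acp5), and carry the calcitonin receptor (Calcr). In the mammary gland, RANKL is made by hormone-sensing luminal cells in response to progesterone and acts on neighbouring epithelium.

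Messenger RNA was measured on Affymetrix arrays in 48 mammary tumours and 17 mammary glands. Each tumour arose from p53-null mammary fragments, never irradiated themselves, that were transplanted into fat pads whose own epithelium had been removed at 3 weeks of age. Hosts were heterozygous for Tgfb1 or wild-type and received radiation or a sham exposure 3 days before transplantation. The labels used here give no dose for the hosts. There were 10 tumours from irradiated heterozygous hosts, 6 from sham heterozygous hosts, 23 from irradiated wild-type hosts and 9 from sham wild-type hosts. Because donor epithelium was p53-null in every tumour, the labelled differences between groups lie in the host, and a tumour sample can hold host cells beside donor cells. The glands came from BALB/c littermates, Tgfb1 heterozygous or wild-type, aged 10 weeks, whose cycles had been aligned with estrogen and progesterone. All received 10 cGy or a sham exposure. Glands of each genotype were taken 4 weeks after 10 cGy (3 heterozygous, 3 wild-type), 1 week after 10 cGy (2 heterozygous, 3 wild-type) or 1 week after sham (3 heterozygous, 3 wild-type). The sham glands analysed here were all taken at 1 week, so a comparison of 4-week with sham glands also spans the time housed after exposure. The labels give the age of 10 weeks for every gland group alike. The lymph node was removed from each gland before RNA was prepared.

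Array medians lay between 5.84 and 5.96 in the deposited log2 values of tumours, and between 4.86 and 4.93 in glands after conversion to log2. Tgfb1 had log2 levels of 3.81 to 4.67 in the 8 heterozygous glands and 4.57 to 5.45 in the 9 wild-type glands. The genotype difference averaged over conditions was -0.84 (SE 0.13, limma adjusted p = 0.0351). Among the 8 heterozygotes, 6 were lower than every wild-type gland. In tumours Tgfb1 had levels of 6.47 to 9.29 in the 16 from heterozygous hosts and 7.88 to 11.33 in the 32 from wild-type hosts. In 1 tumour the title and another label disagree on host treatment, and it was placed with irradiated wild-type hosts by its title. Among the tumours, irradiated heterozygous-host tumour 11 and sham heterozygous-host tumour 2 stood apart in most of the genes described here. Most differences and correlations of the 8 genes that rest on them are given with and without them. Values of other genes are given with all tumours only. Levels below are log2 values of 1 probe set per gene and are not compared between genes. A level filter at the 40th percentile of all probe-set means kept 6 members in tumours (all but Tnfsf11 and Calcr) and 7 in glands (all but Calcr).

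Dcstamp encodes the fusion protein of osteoclasts and multinucleated macrophages. Its lowest, median and highest levels were 5.32, 7.02 and 8.30 in tumours of irradiated heterozygous hosts, and 5.03, 5.40 and 8.57 in those of sham heterozygous hosts. They were 4.71, 5.09 and 7.17 in tumours of irradiated wild-type hosts, and 4.55, 5.11 and 7.04 in those of sham wild-type hosts. All 10 tumours of irradiated heterozygous hosts lay above the median of the irradiated wild-type hosts and 4 lay above the highest of them, so the groups overlapped. The levels averaged 7.03 ± 1.02 (SD, n = 10) in irradiated heterozygous hosts, 5.99 ± 1.38 (n = 6) in sham heterozygous hosts, 5.31 ± 0.58 (n = 23) in irradiated wild-type hosts and 5.18 ± 0.75 (n = 9) in sham wild-type hosts. In these bulk samples, more cells that express a gene and more RNA per cell cannot be told apart.

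The difference that chose Dcstamp, irradiated heterozygous minus irradiated wild-type hosts, was 1.72 (SE 0.31), and 1.58 without irradiated heterozygous-host tumour 11. No fold is given, because the median of the irradiated wild-type hosts, 5.09, lay under the filter level of 5.14. In that comparison 0.00782% of genes, Dcstamp alone, were past the threshold of the fit, from which nothing is read because the rule used it. Irradiated minus sham heterozygous hosts differed by 1.03 (SE 0.42), and the change with irradiation in heterozygous minus that in wild-type hosts was 0.90 (SE 0.53), both as description. Without sham heterozygous-host tumour 2 the first of these was 1.55 and without tumour 11 it was 0.89. Comparisons free of the irradiated heterozygous hosts were tested. Sham heterozygous minus sham wild-type hosts differed by 0.82 (95% interval -0.05 to 1.68, limma adjusted p = 0.957), with 4 of 6 tumours above the wild-type median, and by 0.30 without tumour 2. Irradiated minus sham wild-type hosts differed by 0.13 (95% interval -0.51 to 0.78, limma adjusted p = 0.966). In these 2 tested comparisons limma called 0 of 6 members, with 0 of 12 values at an unadjusted p under 0.05, where percent called over all genes was 0% in each.

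**Figure D1:**
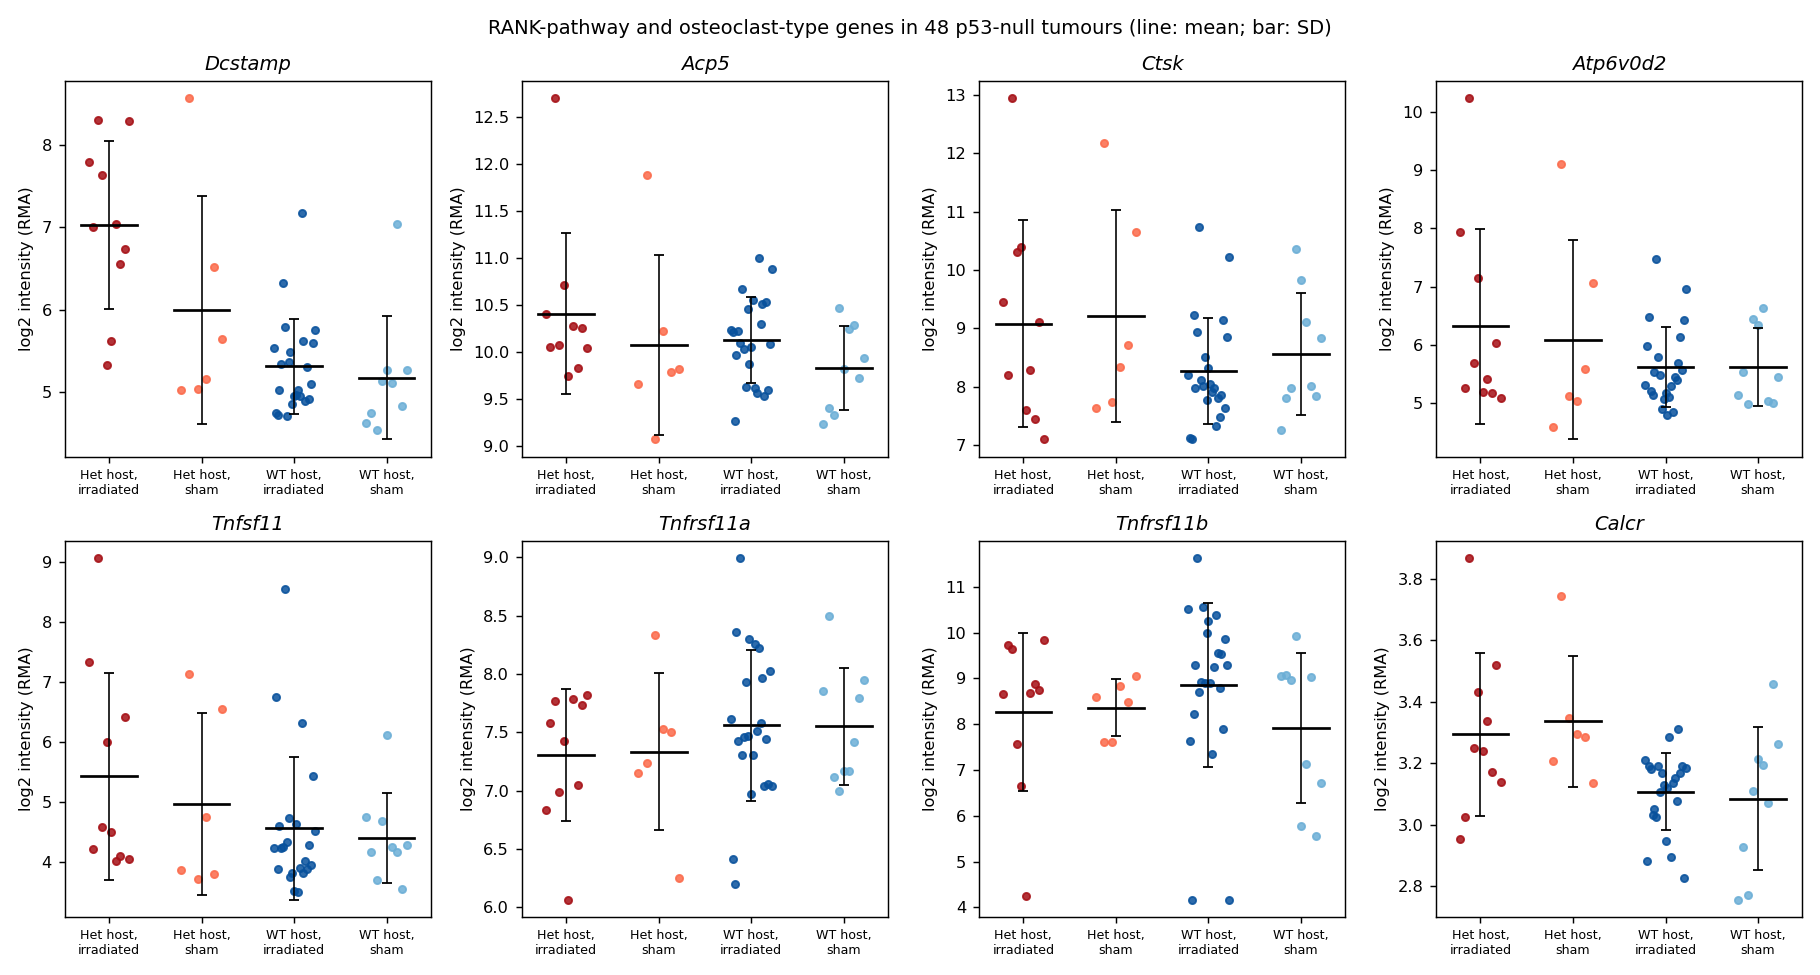
Log2 level of each of the 8 genes in every tumour, with host groups from left to right irradiated heterozygous (n = 10), sham heterozygous (n = 6), irradiated wild-type (n = 23) and sham wild-type (n = 9). Each point is 1 tumour and the horizontal line is the group mean, with a vertical bar of 1 SD either side. Dcstamp averaged 7.03 in irradiated heterozygous and 5.31 in irradiated wild-type hosts, and for all 8 genes the groups overlapped.

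Acp5, the acid phosphatase used as an osteoclast stain and also present in macrophages, had lowest, median and highest levels of 9.74, 10.16 and 12.70 in irradiated heterozygous hosts and 9.07, 9.81 and 11.88 in sham heterozygous hosts. Wild-type hosts gave 9.26, 10.10 and 11.00 after irradiation and 9.23, 9.82 and 10.47 after sham. The group ranges overlapped, and 1 tumour of an irradiated heterozygous host lay above all of those from irradiated wild-type hosts. The difference irradiated heterozygous minus irradiated wild-type was 0.28 (SE 0.23), and 0.03 without tumour 11. In the tested comparisons Acp5 differed by 0.25 (SE 0.32, limma adjusted p = 0.999) between sham heterozygous and sham wild-type hosts and by 0.30 (SE 0.24, limma adjusted p = 0.866) between irradiated and sham wild-type hosts. Without tumour 2 the first of these turned to -0.11.

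Ctsk, the collagen-degrading protease cathepsin K, spread widely within every group. Its lowest, median and highest levels were 7.09, 8.69 and 12.95 in irradiated heterozygous hosts and 7.63, 8.53 and 12.17 in sham heterozygous hosts. Irradiated wild-type hosts had 7.10, 8.01 and 10.73, and sham wild-type hosts 7.25, 8.02 and 10.36. Each heterozygous group reached above all wild-type tumours in at least 1 tumour, while the lower ends were alike. Irradiated heterozygous minus irradiated wild-type hosts gave 0.81 (SE 0.47), and irradiated minus sham heterozygous hosts gave -0.13 (SE 0.64). Without tumour 11 these were 0.38 and -0.56, and without tumour 2 the second was 0.47, so 1 tumour set its sign. The tested differences were 0.65 (SE 0.66, limma adjusted p = 0.997) for sham heterozygous minus sham wild-type hosts and -0.28 (SE 0.49, limma adjusted p = 0.945) for irradiated minus sham wild-type hosts. The first of these was 0.06 without tumour 2.

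Atp6v0d2, a proton pump subunit that osteoclasts and some macrophages use for fusion and acid secretion, had lowest, median and highest levels of 5.09, 5.55 and 10.23 in irradiated heterozygous hosts and 4.59, 5.36 and 9.10 in sham heterozygous hosts. In wild-type hosts they were 4.80, 5.44 and 7.47 after irradiation, and 4.98, 5.45 and 6.63 after sham. The 4 medians lay close together and the highest tumours set the means apart. The difference irradiated heterozygous minus irradiated wild-type was 0.70 (SE 0.41), and the tested differences were 0.47 (SE 0.57) for sham heterozygous minus sham wild-type hosts and 0.00 (SE 0.42) for irradiated minus sham wild-type hosts, with limma adjusted p = 0.999 and 1.00. Irradiated heterozygous minus irradiated wild-type hosts gave 0.27 without tumour 11, and sham heterozygous minus sham wild-type hosts turned to -0.14 without tumour 2. A second, dimmer Atp6v0d2 probe set followed the first across the 48 tumours (r = 0.966).

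Tnfsf11, which encodes RANKL, was dim in most tumours and lay under the level filter. Lowest, median and highest levels were 4.02, 4.55 and 9.06 in irradiated heterozygous hosts and 3.72, 4.31 and 7.14 in sham heterozygous hosts. They were 3.50, 4.24 and 8.56 in irradiated wild-type hosts, and 3.56, 4.25 and 6.11 in sham wild-type hosts. A few tumours in each group were bright and the rest were dim. Without the filter, irradiated heterozygous minus irradiated wild-type hosts gave 0.87 (SE 0.48), sham heterozygous minus sham wild-type hosts 0.56 (SE 0.66, limma adjusted p = 0.976) and irradiated minus sham wild-type hosts 0.16 (SE 0.49, limma adjusted p = 0.966). The first was 0.46 without tumour 11, and the second was 0.13 without tumour 2.

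Neither receptor passed in a tested comparison of host groups. Tnfrsf11a, the receptor RANK, had lowest, median and highest levels of 6.07, 7.51 and 7.82 in irradiated heterozygous hosts, 6.25, 7.37 and 8.33 in sham heterozygous hosts, 6.20, 7.47 and 8.99 in irradiated wild-type hosts and 7.00, 7.42 and 8.50 in sham wild-type hosts. Irradiated heterozygous minus irradiated wild-type hosts gave -0.25 (SE 0.23), and the tested differences were -0.22 (SE 0.32, limma adjusted p = 0.999) for sham heterozygous minus sham wild-type hosts and 0.01 (SE 0.24, limma adjusted p = 0.998) for irradiated minus sham wild-type hosts. Tnfrsf11b, the decoy receptor osteoprotegerin, had 4.25, 8.71 and 9.84 in irradiated heterozygous hosts, 7.60, 8.54 and 9.06 in sham heterozygous hosts, 4.17, 9.26 and 11.62 in irradiated wild-type hosts and 5.56, 8.97 and 9.93 in sham wild-type hosts. No tumour of an irradiated heterozygous host exceeded the highest of the irradiated wild-type hosts, and only 3 of 10 lay above their median. The difference was -0.60 (SE 0.61), opposite in sign to that of Dcstamp and within its error of 0. Without tumour 11 it was -0.75, and that of Tnfrsf11a was -0.31. The tested differences of Tnfrsf11b were 0.44 (SE 0.85, limma adjusted p = 0.999) for sham heterozygous minus sham wild-type hosts and 0.94 (SE 0.63, limma adjusted p = 0.812) for irradiated minus sham wild-type hosts. A second Tnfrsf11b probe set followed the first (r = 0.878). It averaged 5.65 in sham heterozygous and 5.99 in sham wild-type hosts, the opposite order to the first. In irradiated hosts it averaged 5.99 and 6.76, the same order.

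Calcr, the calcitonin receptor that marks mature osteoclasts and some luminal progenitors, was at the bottom of the array's range. All 48 tumours lay between 2.76 and 3.87, and 3.77% of all probe sets had a lower mean over tumours. Its group means were 3.29 ± 0.26 (SD, n = 10) in irradiated heterozygous hosts, 3.34 ± 0.21 (n = 6) in sham heterozygous hosts, 3.11 ± 0.12 (n = 23) in irradiated wild-type hosts and 3.09 ± 0.23 (n = 9) in sham wild-type hosts. Without the filter the sham heterozygous minus sham wild-type difference was 0.25 (SE 0.10, limma adjusted p = 0.731, unadjusted p = 0.0154), with all 6 tumours above the wild-type median, and 0.17 without tumour 2. A value this low does not show whether the gene was expressed.

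Whether Dcstamp moved with the other members was then asked within host groups, where the difference that chose it plays no part. Each gene was centred on its group means, Pearson's r with Dcstamp was taken over the 48 tumours, and p came from 100000 permutations of tumours within groups, adjusted over 12785 genes. Acp5 was the member most like Dcstamp, with r = 0.58 (permutation p = 0.00018, adjusted p = 0.0470), the 6th highest r of all 12785 genes. In all, 57 genes with positive r and 33 with negative r passed (0.704% of genes), so that 1 of 5 tested members passed. By rank, Spearman's rho was 0.48 (permutation p = 0.00111, adjusted p = 0.0565), which missed the threshold. Leaving out the 2 tumours farthest from the median of Dcstamp, sham heterozygous-host tumour 2 and irradiated heterozygous-host tumour 11, lowered r to 0.37 (adjusted p = 0.187). The call therefore rested on those tumours, and it was also lost without tumour 2 alone (r = 0.45, adjusted p = 0.140) or tumour 11 alone (r = 0.56, adjusted p = 0.0698). Within single groups r between Dcstamp and Acp5 was 0.38 in irradiated heterozygous, 0.88 in sham heterozygous, 0.52 in irradiated wild-type and 0.62 in sham wild-type hosts. It was positive in 4 of 4 groups.

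No other tested member passed with Dcstamp. Ctsk had r = 0.38 (rho = 0.43, permutation p = 0.0289, adjusted p = 0.246) and Atp6v0d2 r = 0.38 (rho = 0.24, permutation p = 0.0440, adjusted p = 0.293). Without tumours 2 and 11 these r were 0.11 for Ctsk and 0.02 for Atp6v0d2. Within the 6 sham heterozygous hosts r was 0.84 for Ctsk and 0.88 for Atp6v0d2, and within the 23 irradiated wild-type hosts it was 0.24 for Ctsk and 0.01 for Atp6v0d2. Tnfrsf11b had r = 0.29 (rho = 0.24, permutation p = 0.0300, adjusted p = 0.250) and 0.36 without those tumours, while Tnfrsf11a had r = 0.20 (rho = 0.15, permutation p = 0.197, adjusted p = 0.531) and 0.22 without them. Among the genes under the filter, Tnfsf11 had r = 0.37 (rho = 0.24, permutation p = 0.0241, adjusted p = 0.277) and Calcr r = 0.23 (rho = 0.15, permutation p = 0.177, adjusted p = 0.565) when all 18193 genes were tested.

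**Figure D2:**
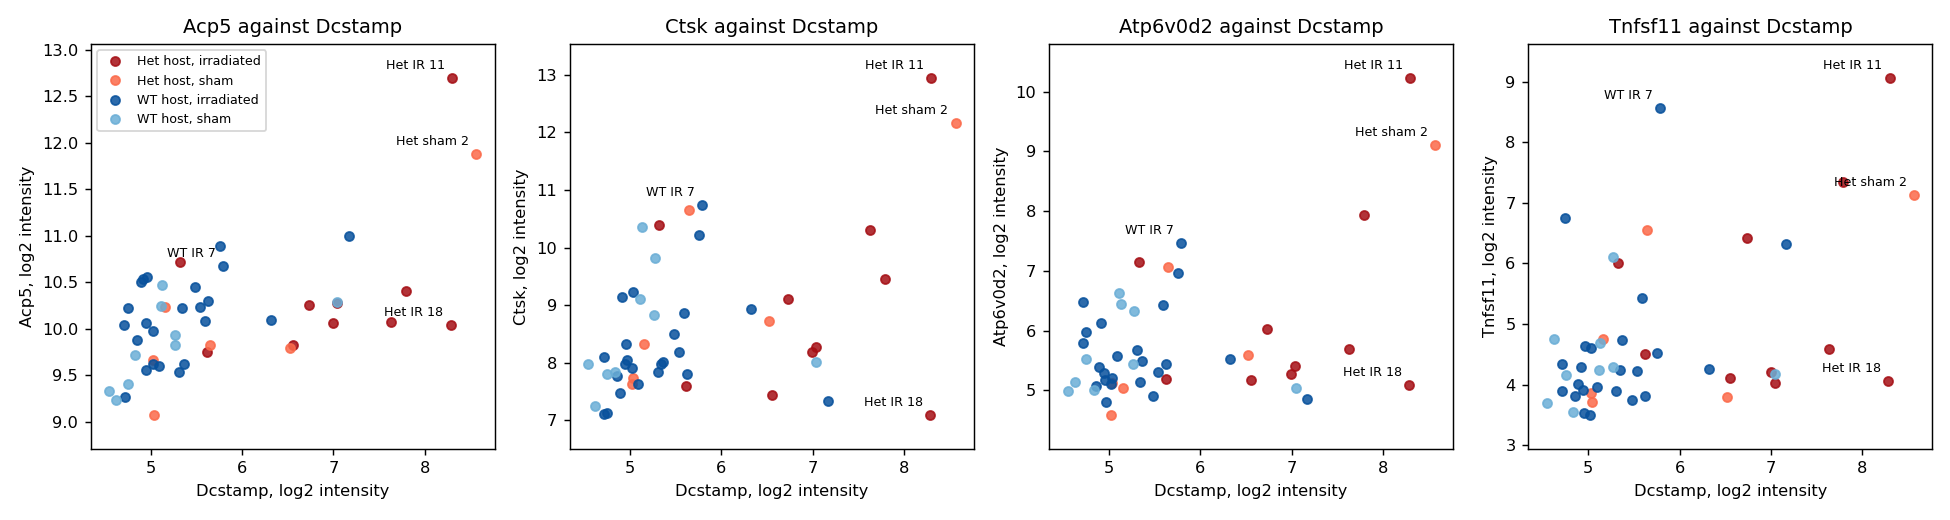
Log2 level of Acp5, Ctsk, Atp6v0d2 and Tnfsf11 (vertical axes) against the log2 level of Dcstamp (horizontal axis) in the 48 tumours, with 1 point per tumour coloured by host group. Irradiated heterozygous-host tumour 11 and sham heterozygous-host tumour 2 are high on both axes in all 4 panels. Irradiated heterozygous-host tumour 18 has a Dcstamp level of 8.28 with a Ctsk level of 7.09, the lowest of all 48.

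Over all 48 tumours, Acp5, Ctsk and Atp6v0d2 had higher r with each other than with Dcstamp, a difference that was not tested. For Acp5 this order did not hold throughout. Its rho was 0.37 with Atp6v0d2 and 0.48 with Dcstamp. Within the 23 irradiated wild-type hosts its r was 0.52 with Dcstamp, 0.42 with Ctsk and 0.11 with Atp6v0d2. Ctsk and Atp6v0d2 had r = 0.83 (rho = 0.70), and Ctsk was the gene most like Atp6v0d2 among 12785. Acp5 had r = 0.72 (rho = 0.56) with Ctsk and 0.68 (rho = 0.37) with Atp6v0d2. Without the 2 tumours farthest from the Ctsk median r was 0.71 between Ctsk and Atp6v0d2 and 0.50 between Ctsk and Acp5, and without those farthest from the Acp5 median it was 0.30 between Acp5 and Atp6v0d2. Of the 15 pairs of tested members 4 passed in both directions of testing by Pearson's r, and by Spearman's rho 2 did, Acp5 with Ctsk and Ctsk with Atp6v0d2. This must be read against broad co-variation, since 18.5% of all genes passed with Acp5, 33.6% with Ctsk and 34.7% with Atp6v0d2. The permutation p of 1e-05 for Ctsk with Atp6v0d2 and for Ctsk with Acp5 is the smallest that 100000 permutations can give, and the adjusted p in the Ctsk test was 0.00023 for each.

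RANKL also varied with the resorption genes in tumours, although it lay under the filter. Tnfsf11 had r = 0.77 with Atp6v0d2 (rho = 0.70, permutation p = 1e-05, adjusted p = 0.00085), the 5th highest of 18193 genes. Its r was 0.66 with Ctsk (rho = 0.58, adjusted p = 0.00117) and 0.63 with Acp5 (rho = 0.54, adjusted p = 0.00147). In the Tnfsf11 test 19.9% of genes passed. Leaving out the 2 tumours farthest from the Tnfsf11 median gave 0.66 with Atp6v0d2, 0.49 with Ctsk and 0.50 with Acp5. In tumour 7 of the irradiated wild-type hosts, picked after its values were seen, Tnfsf11 was 8.56, Ctsk 10.73, Atp6v0d2 7.47 and Acp5 10.67. Among all tumours these levels ranked 2, 3, 4 and 6 from the highest. Dcstamp, at 5.79, ranked 14 and lay above the group median of 5.09. The second Tnfsf11 probe set followed the first (r = 0.942).

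RANK and osteoprotegerin had r near 0 with these genes. Tnfrsf11a had r = -0.19 with Atp6v0d2, -0.05 with Ctsk, 0.05 with Acp5 and -0.12 with Tnfsf11. Tnfrsf11b had r = -0.15 with Atp6v0d2, -0.06 with Ctsk, 0.06 with Acp5 and 0.02 with Tnfsf11. Without the 2 tumours farthest from the Atp6v0d2 median, r with Atp6v0d2 was -0.36 for Tnfrsf11a and -0.275 for Tnfrsf11b. Within the 23 irradiated wild-type hosts these r were -0.39 and -0.52, and within the 10 irradiated heterozygous hosts 0.18 and 0.19. The differences between these r were not tested. With each other the receptors had r = 0.43 (rho = 0.27), with adjusted p = 0.0470 in the test of Tnfrsf11a and 0.0526 in that of Tnfrsf11b. Without the 2 tumours farthest from the Tnfrsf11a median that r was 0.27.

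**Figure D3:**
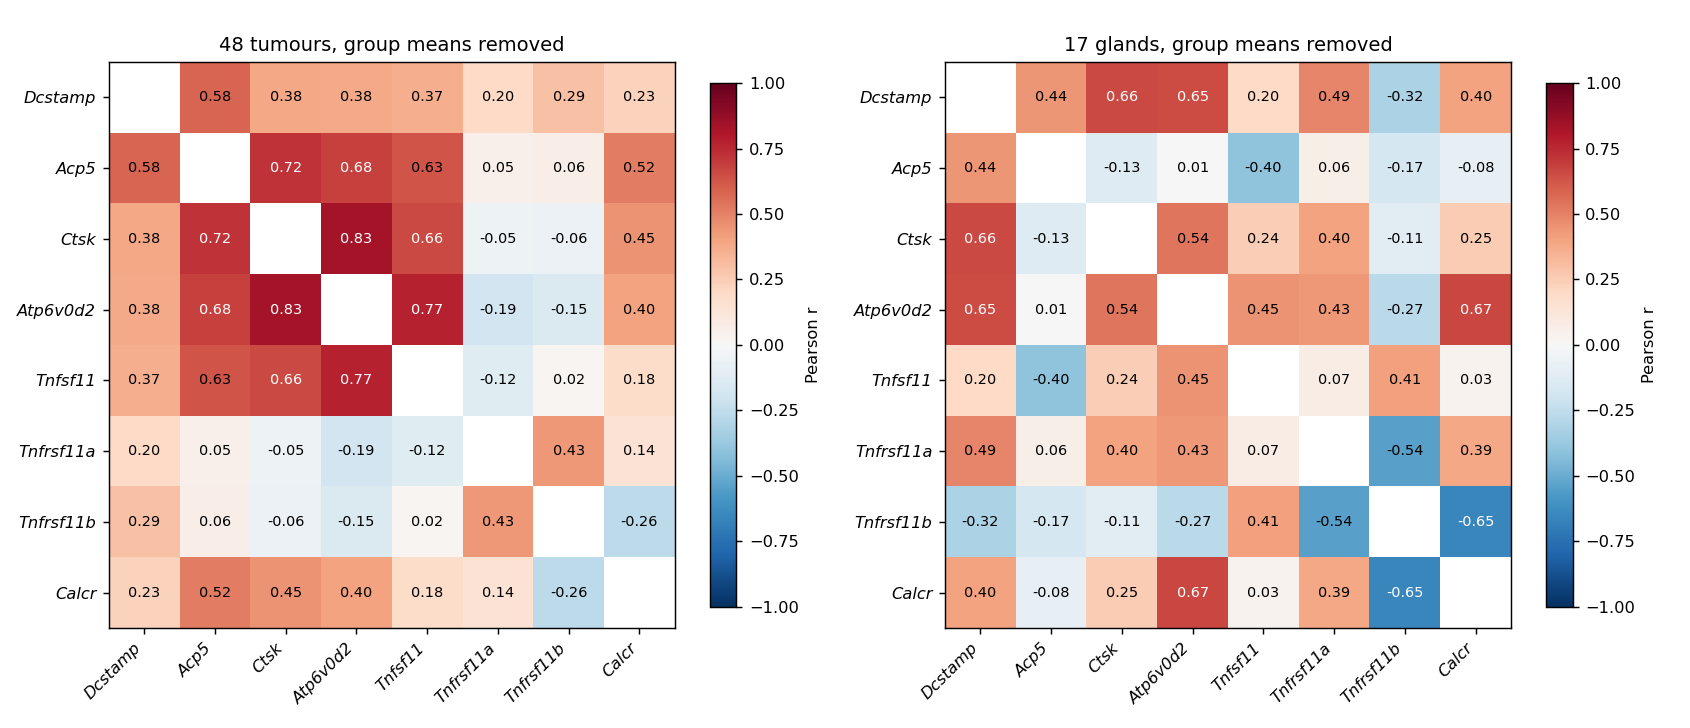
Pearson's r between each pair of the 8 genes after centring on group means, in the 48 tumours and in the 17 glands. Colour runs from -1 to 1 and the value is printed in each cell. Over the 48 tumours Acp5, Ctsk, Atp6v0d2 and Tnfsf11 form a block of high r (0.63 to 0.83), while Tnfrsf11a and Tnfrsf11b have r of -0.19 to 0.06 with that block. Within host groups, r in the block was 0.83 to 0.96 in irradiated and 0.76 to 0.99 in sham heterozygous hosts. It was 0.11 to 0.58 in irradiated and 0.12 to 0.85 in sham wild-type hosts. Without the 2 tumours farthest from the Acp5 median, Acp5 with Atp6v0d2 had r = 0.30.

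Promoters of the genes that moved together in tumours are shown for the letters that osteoclast factors are known to bind. RefSeq windows of GRCm38.p6, from 250 bases before to 50 after a transcript start, were held for 5 of the 8 members: Acp5, Ctsk, Tnfsf11, Tnfrsf11a and Calcr. Capitals mark a PU.1 motif (GAGGAA), an MITF/TFE motif (TCANGTG) or an AP-1 motif (TGANTCA) on either strand, with no overlap between them in these windows. The windows are Ctsk at chr3:95498960-95499259 on the plus strand, Acp5 at chr9:22130549-22130848 on the minus strand, for the most downstream of its 3 listed starts, and Tnfsf11 at chr14:78307994-78308293 on the minus strand. Each is written 5′ to 3′ along its gene.
Ctsk: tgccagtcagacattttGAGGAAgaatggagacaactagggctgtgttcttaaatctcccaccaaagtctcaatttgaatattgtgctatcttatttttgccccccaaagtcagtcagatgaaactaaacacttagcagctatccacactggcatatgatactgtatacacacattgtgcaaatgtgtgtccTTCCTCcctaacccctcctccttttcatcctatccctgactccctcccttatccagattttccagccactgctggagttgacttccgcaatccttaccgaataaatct
Acp5: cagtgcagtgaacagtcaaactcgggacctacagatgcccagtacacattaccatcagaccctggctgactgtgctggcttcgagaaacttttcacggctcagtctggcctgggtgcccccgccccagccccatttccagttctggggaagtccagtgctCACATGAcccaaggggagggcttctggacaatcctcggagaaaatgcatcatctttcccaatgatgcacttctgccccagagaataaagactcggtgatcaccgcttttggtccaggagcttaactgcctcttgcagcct
Tnfsf11: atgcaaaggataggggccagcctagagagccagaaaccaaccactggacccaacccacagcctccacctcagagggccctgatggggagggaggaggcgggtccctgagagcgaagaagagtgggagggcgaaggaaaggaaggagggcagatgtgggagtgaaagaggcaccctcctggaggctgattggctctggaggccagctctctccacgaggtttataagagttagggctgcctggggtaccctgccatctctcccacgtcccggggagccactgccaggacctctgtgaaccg
The Ctsk window held 2 PU.1 motifs, the printed Acp5 window held 1 MITF/TFE motif, and the Tnfsf11 window held none of the 3 kinds. The windows of the other listed Acp5 starts, not printed, held none of the 3 kinds either. Of 32851 promoter windows of the same length, 28.3% held the PU.1 letters, 14.3% the MITF/TFE letters and 7.81% the AP-1 letters. The NFAT core (GGAAA) was in all 3 printed windows and in 61.3% of all windows. A match describes letters alone and not binding.

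The 3 tumours with the most Dcstamp differed in the other members. Irradiated heterozygous-host tumour 11 was second in Dcstamp, 8.30, and first in Acp5 (12.70), Ctsk (12.95), Atp6v0d2 (10.23), Tnfsf11 (9.06) and Calcr (3.87). Irradiated heterozygous-host tumour 18 came next in Dcstamp, 8.28, but ranked 27 of 48 in Acp5 (10.04), 48 in Ctsk (7.09), 39 in Atp6v0d2 (5.09) and 32 in Tnfsf11 (4.06). Sham heterozygous-host tumour 2 had the highest Dcstamp, 8.57, and ranked 2 of 48 in Acp5 (11.88), Ctsk (12.17), Atp6v0d2 (9.10) and Calcr (3.75) and 4 in Tnfsf11 (7.14). High Dcstamp thus came with high Acp5, Ctsk, Atp6v0d2 and Tnfsf11 in tumours 11 and 2 and without them in tumour 18. Among the receptors, Tnfrsf11a ranked 16, 13 and 32 and Tnfrsf11b ranked 11, 9 and 38 in tumours 11, 18 and 2.

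Genes of osteoclast fusion and resorption and of RANK transduction differed between these tumours. The list of fusion, adhesion and resorption genes, 24 of them tested, had 7 genes among the top 3 of 48 tumours in tumour 11, 6 in tumour 2 and 0 in tumour 18. The share of all genes in the top 3 of each tumour was not counted, so such counts are not read as particular to a list. Of 11 fibroblast markers 8 were in the top 3 in tumour 11, 8 in tumour 2 and 0 in tumour 18. Ocstamp, the partner of DC-STAMP in fusion, was at 7.90 in tumour 11 and 7.46 in tumour 2, first and second, against a median of 5.32. Mmp9, a matrix-degrading protease, was at 11.70 and 11.27 against a median of 6.78. Nfatc1, the transcription factor that RANK signalling induces in osteoclast precursors, was at 8.92 and 8.52 against 7.45, and Mitf, which acts on Acp5 and Ctsk, was at 8.96 and 8.09 against 7.39. Oscar, an osteoclast co-stimulatory receptor, and a member of the co-stimulation list, was at 6.10 and 5.45 against 4.88. These genes were picked for naming after their values were seen. Of 13 osteoclast transcription factors 3 were in the top 3 in tumour 11, 3 in tumour 2 and 0 in tumour 18. In each of tumours 11 and 2, 8 of the 13 lay above the middle of the 48 tumours. The mean of the 13 ranked 7 in tumour 11, 12 in tumour 2 and 39 in tumour 18. Of 14 genes of the co-stimulation list 2 were in the top 3 in tumour 11, 2 in tumour 2 and 0 in tumour 18. Of 17 RANK transduction genes 0 were in the top 3 in tumour 11, 2 in tumour 18 and 0 in tumour 2, and the mean of that list ranked 46, 5 and 10 of 48.

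Markers of other cells moved with these tumours as well. The mean of 11 fibroblast markers was 12.72 in tumour 11 and 12.54 in tumour 2, ranks 1 and 2 of 48, and 9.11 in tumour 18, rank 48, against a median of 10.38. The mean of 16 macrophage markers was 11.14 in tumour 11, 10.66 in tumour 2 and 10.43 in tumour 18, ranks 5, 14 and 25, against a median of 10.44. The mean of osteoblast and cartilage markers was 5.18 in tumour 11, 5.92 in tumour 2 and 5.21 in tumour 18, against a median of 5.37. All 7 adipocyte markers were in the top 3 in tumour 11. The mean of 8 endothelial markers ranked 4 in tumour 11, 35 in tumour 18 and 3 in tumour 2, and that of 8 basal markers ranked 15, 14 and 3. The mean of 10 luminal markers ranked 41, 25 and 38. The part of these cells in the levels of the 8 genes was not tested.

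**Figure D4:**
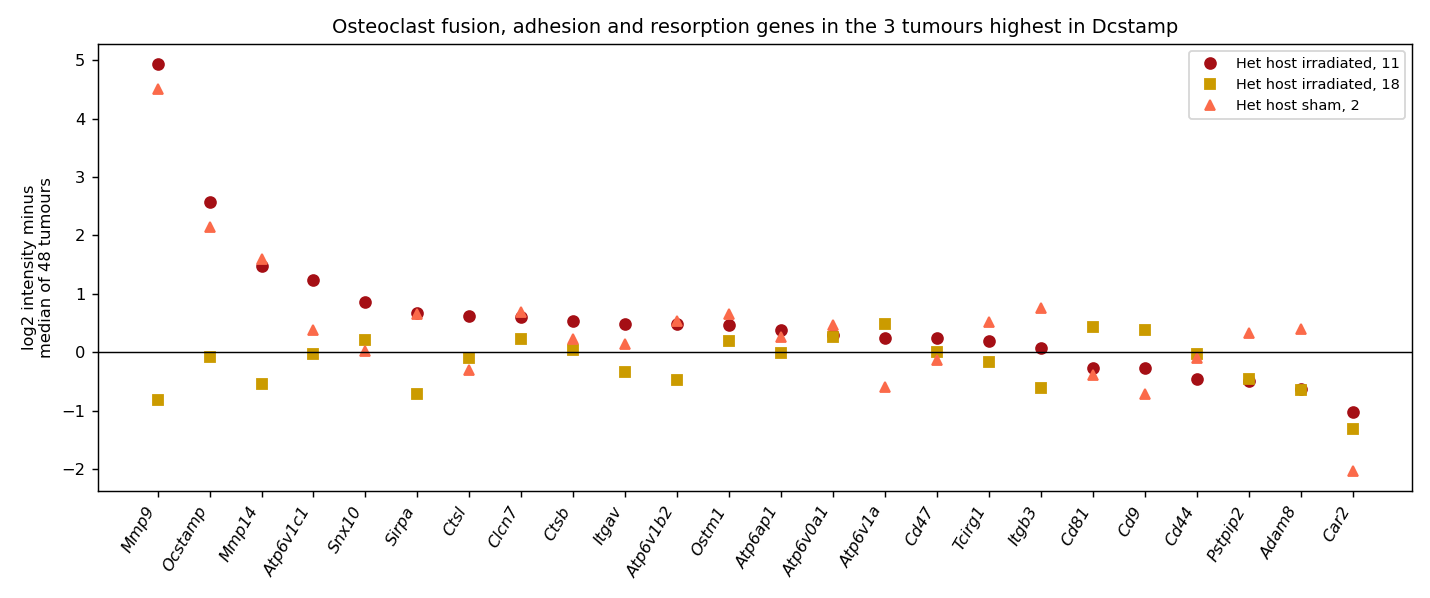
Log2 level of 24 genes of osteoclast fusion, adhesion and resorption in the 3 tumours with the most Dcstamp, minus the median of the 48 tumours. Circles are irradiated heterozygous-host tumour 11, squares irradiated heterozygous-host tumour 18 and triangles sham heterozygous-host tumour 2. Ocstamp and Mmp9 stand above the median in tumours 2 and 11, and 0 of the 24 genes rank in the top 3 in tumour 18. The share of all genes in the top 3 was not counted.

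Beyond the members, the 10 genes most like Dcstamp within host groups were Hdac9 (r = 0.61), Postn (0.60), Wnt10a (0.60), Plxnc1 (0.59), Msrb3 (0.59), Acp5 (0.58), Nuak1 (0.58), Dram1 (0.57), Tmem119 (0.56) and Nfkbie (0.56), over 48 tumours. All 10 passed by Pearson's r, with adjusted permutation p of 0.0284 to 0.0472. By Spearman's rho Wnt10a (adjusted p = 0.0801), Acp5 (0.0565) and Nuak1 (0.0590) did not. Postn encodes periostin, a fibroblast matrix protein, and Nfkbie an inhibitor of NF-kappaB.

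Of 24 tested genes of fusion, adhesion and resorption 0 passed by permutation with adjustment over all genes, the highest being Mmp9 (r = 0.46, rho = 0.56, adjusted p = 0.103) and Clcn7, a chloride transporter of the resorbing membrane (r = 0.45, rho = 0.46, adjusted p = 0.123). Of 13 osteoclast transcription factors 0 passed, with Mitf at r = 0.49 (rho = 0.45, adjusted p = 0.0695) and Spi1, which encodes PU.1, at 0.42 (rho = 0.45, adjusted p = 0.103). Of 17 genes of RANK signal transduction 0 passed, with Nfkbia at 0.41 (rho = 0.38, adjusted p = 0.103) and Nfkb2 at 0.40 (rho = 0.30, adjusted p = 0.0891). Of 13 genes of M-CSF and immunoreceptor co-stimulation 1 passed, the kinase Tec (r = 0.54, rho = 0.57, adjusted p = 0.0284). The median r with Dcstamp was 0.19 for the fusion list and 0.35 for the co-stimulation list, against -0.01 for all genes.

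Macrophage and fibroblast markers were each set against Dcstamp, Acp5 and Ctsk. Of 16 macrophage markers Mpeg1 passed (r = 0.53, rho = 0.49, adjusted p = 0.0470) and of 11 fibroblast markers Postn, all within 0.704% of genes passing with Dcstamp, and the median r was 0.33 for the macrophage and 0.29 for the fibroblast list. With Acp5, 15 of 16 macrophage markers and 9 of 11 fibroblast markers passed with positive r, as did 10.3% of all genes. With Ctsk 14 of 16 and 11 of 11 did, as did 16.4% of all genes. Csf1r, the macrophage receptor for M-CSF, had r = 0.75 with Acp5 and 0.73 with Ctsk. Of 10 luminal markers 8 passed with negative r for Ctsk and 9 for Atp6v0d2, such as the luminal keratin Krt18 at -0.57 and -0.71, where 17.2% of all genes passed with negative r for Ctsk and 18.4% for Atp6v0d2. When the macrophage mean was taken out of both genes, r between Dcstamp and Acp5 was 0.51 (adjusted p = 0.165), and with the fibroblast mean taken out it was 0.51 (adjusted p = 0.106).

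The genes most like the other members differed from one to the next. For Acp5 they were Slc37a2 (r = 0.82), Otulinl (0.79) and Rgs10 (0.78), and for Ctsk Apcdd1 (0.89), Gask1b (0.89) and Lum (0.87), the last a collagen-binding proteoglycan of fibroblasts. For Atp6v0d2 they were Ctsk (0.83), Lrp1 (0.82) and Map6 (0.82), and for Tnfsf11 Hhipl1 (0.81), Nbl1 (0.80) and Mrgprf (0.80). For Tnfrsf11a they were Plscr2 (0.75), Rab29 (0.75) and Rb1 (0.66), and for Tnfrsf11b Uap1 (0.75), Ifngr2 (0.74) and Foxc1 (0.72). Each r is over 48 tumours after centring on group means. The shares of genes that passed were 7.28% with Tnfrsf11a and 4.87% with Tnfrsf11b.

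Between host groups the pathway lists gave 0 calls by limma in all 5 comparisons, for RANK transduction (17 genes tested), osteoclast transcription factors (13), co-stimulation (13), fusion and resorption (24), giant-cell and lipid-handling macrophage genes (12) and the hormone to RANKL axis of mammary epithelium (12). For irradiated heterozygous minus irradiated wild-type hosts the fusion list had a median of 0.09 with 18 of 24 genes positive, and over all genes the median was 0.00 with 50% positive. The hormone list had a median of 0.59 with 11 of 12 positive. In it the progesterone receptor gene Pgr differed by 1.78 (SE 0.60) and Cited1, a transcription co-regulator of hormone-sensing cells, by 1.34, as description. Macrophage markers had a median of -0.08 with 6 of 16 positive, and their mean was 10.49 ± 0.65 (SD, n = 10) in irradiated heterozygous and 10.47 ± 0.49 (n = 23) in irradiated wild-type hosts. In the tested comparisons the list genes with the smallest p were Map3k14, a kinase of the RANK pathway, at 0.22 (SE 0.10, limma adjusted p = 0.690) in irradiated minus sham wild-type hosts and Wnt4, a progesterone target, at 1.34 (SE 0.58, limma adjusted p = 0.924) in sham heterozygous minus sham wild-type hosts.

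In glands 0 of the 7 tested members passed in any of 11 comparisons by limma, with 3 of 77 values at an unadjusted p under 0.05. Both counts take in Tnfrsf11b differences that involve 4-week glands. Nothing is read from those, because Tnfrsf11b passed the level filter through these glands. The background of calls over all genes was as low, since 0% of genes passed in 7 comparisons. In the others 0.0154% passed for heterozygous glands at 4 weeks minus heterozygous sham and for heterozygous minus wild-type glands at 4 weeks, in each with 0.00772% higher and 0.00772% lower. For the genotype average 0.0463% passed, 0.0232% higher and 0.0232% lower, and for 4 weeks minus 1 week 0.0695%. Dcstamp was dim in all 17 glands, at 3.81 to 4.46 with the mean just above the filter level of 4.15. In 6 glands, among them all 3 heterozygous glands at 4 weeks, it had the identical level of 4.24. The genotype average of Dcstamp was 0.04 (95% interval -0.15 to 0.22, limma adjusted p = 0.873).

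Tnfrsf11b, the decoy receptor, was not called in glands, and its differences at 4 weeks are given as description. In heterozygous glands it stood at 4.54, 5.39 and 5.16 at 4 weeks and 4.04 and 3.85 at 1 week after irradiation. The wild-type levels were 4.54, 5.18 and 5.84 at 4 weeks and 3.73, 3.77 and 3.34 at 1 week. Every 4-week gland lay above every 1-week gland in both genotypes, and how many of all genes had that order was not counted. Limma called 0.0695% of genes in that comparison, and 63.2% of all genes had a positive difference. Sham glands, taken at 1 week, had 3.13, 4.13 and 4.54 in heterozygotes and 4.59, 4.57 and 4.80 in wild-type mice, between or across the ranges of the irradiated glands. All 5 of the 1-week glands lay under the filter level of 4.15, and the 11 glands outside the 4-week groups averaged 4.04, so Tnfrsf11b passed the filter through the 4-week glands. Its differences that involve those glands are therefore given with no p-value. The difference 4 weeks minus 1 week was 1.33 (SE 0.26), and no fold is given against levels this low. It was 1.05 without the glands rich in skeletal muscle markers and 0.66 with the mean of both probe sets. Without wild-type 4-week gland 1 the difference was 1.49, and without heterozygous sham gland 1 it was 1.33. The second, dimmer Tnfrsf11b probe set, with a mean of 3.77, did not follow (r = 0.0172), at 3.90 in heterozygous and 3.84 in wild-type glands at 4 weeks, and 4.05 and 3.69 at 1 week.

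Against sham glands the decoy receptor differed by 1.10 (SE 0.35) in heterozygotes at 4 weeks, as description, and by 0.01 (SE 0.39, limma adjusted p = 0.998) at 1 week. In wild-type mice it differed by 0.53 (SE 0.35) at 4 weeks, as description, and by -1.04 (SE 0.35, limma adjusted p = 0.958) at 1 week. The difference between genotypes in this response was 1.06 (SE 0.52, limma adjusted p = 1.00) at 1 week. At 4 weeks it was 0.56 (SE 0.49), as description. Beside the 4-week minus 1-week difference, skeletal muscle markers were lower in 12 of 12 (median -0.28), T-cell markers in 8 of 8 (median -0.44) and basal epithelial markers were higher in 8 of 8 (median 0.24), with 0 genes called in each. Within genotypes the muscle marker mean was 4.91 at 4 weeks and 6.54 at 1 week in heterozygotes, and 7.18 at 4 weeks and 6.12 at 1 week in wild-type mice. The T-cell marker mean was 5.35 at 4 weeks and 5.09 at 1 week in heterozygotes, and 5.04 at 4 weeks and 6.07 at 1 week in wild-type mice. Single glands were rich in muscle markers, namely wild-type 4-week gland 3, wild-type 1-week gland 3, heterozygous 1-week gland 2 and wild-type sham glands 2 and 3. Glands rich in B-cell markers were wild-type 1-week gland 1, heterozygous sham gland 1 and wild-type sham gland 1. Over all genes the median was 0.06 with 63.2% positive. The part of these cells in the Tnfrsf11b level was not tested.

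Tnfsf11 varied most among glands. It was at 3.28, 9.90 and 9.91 in heterozygous glands at 4 weeks, 8.88 and 9.07 at 1 week and 4.49, 7.38 and 5.40 after sham. In wild-type glands it was at 5.22, 6.38 and 7.52 at 4 weeks, 4.50, 8.55 and 9.46 at 1 week and 9.14, 6.31 and 5.88 after sham. Replicates of 1 group differed by up to the whole range of the 17 glands. Heterozygous 1-week minus heterozygous sham glands differed by 3.22 (95% interval -0.67 to 7.10, limma adjusted p = 0.995). The second Tnfsf11 probe set followed the first (r = 0.973). Of 13 genes of the hormone to RANKL axis 0 passed with Tnfsf11 within gland groups, where 0% of all genes passed. The highest was Wnt4 (r = 0.72, rho = 0.61, exact permutation p = 0.0213, adjusted p = 0.366).

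None of the remaining members passed in glands. Acp5 lay between 8.84 and 9.82, Ctsk between 8.33 and 9.68, Atp6v0d2 between 3.92 and 5.88, Tnfrsf11a between 5.69 and 6.43 and Calcr, under the filter, between 2.67 and 3.29. Their genotype averages were 0.07 (SE 0.16) for Acp5, -0.27 (SE 0.18) for Ctsk, 0.01 (SE 0.26) for Atp6v0d2 and -0.21 (SE 0.11) for Tnfrsf11a, with limma adjusted p of 0.442 to 0.995. For the RANK receptor, the median was 5.94 in the 8 heterozygous and 6.08 in the 9 wild-type glands, with overlapping ranges. A second, dimmer Tnfrsf11a probe set, under the filter, did not follow the first (r = 0.0726). After sham it averaged 4.31 in heterozygous and 3.99 in wild-type glands. After 10 cGy these means were 4.09 and 4.04 at 1 week, and 4.14 and 3.99 at 4 weeks. The closest pathway gene to the threshold was Mmp9, at 0.88 (SE 0.16, limma adjusted p = 0.0597) in the genotype average and 1.56 (SE 0.26, limma adjusted p = 0.0764) in heterozygous minus wild-type glands at 4 weeks. None of the 6 pathway lists had a called gene by limma in any of the 11 gland comparisons.

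**Figure D5:**
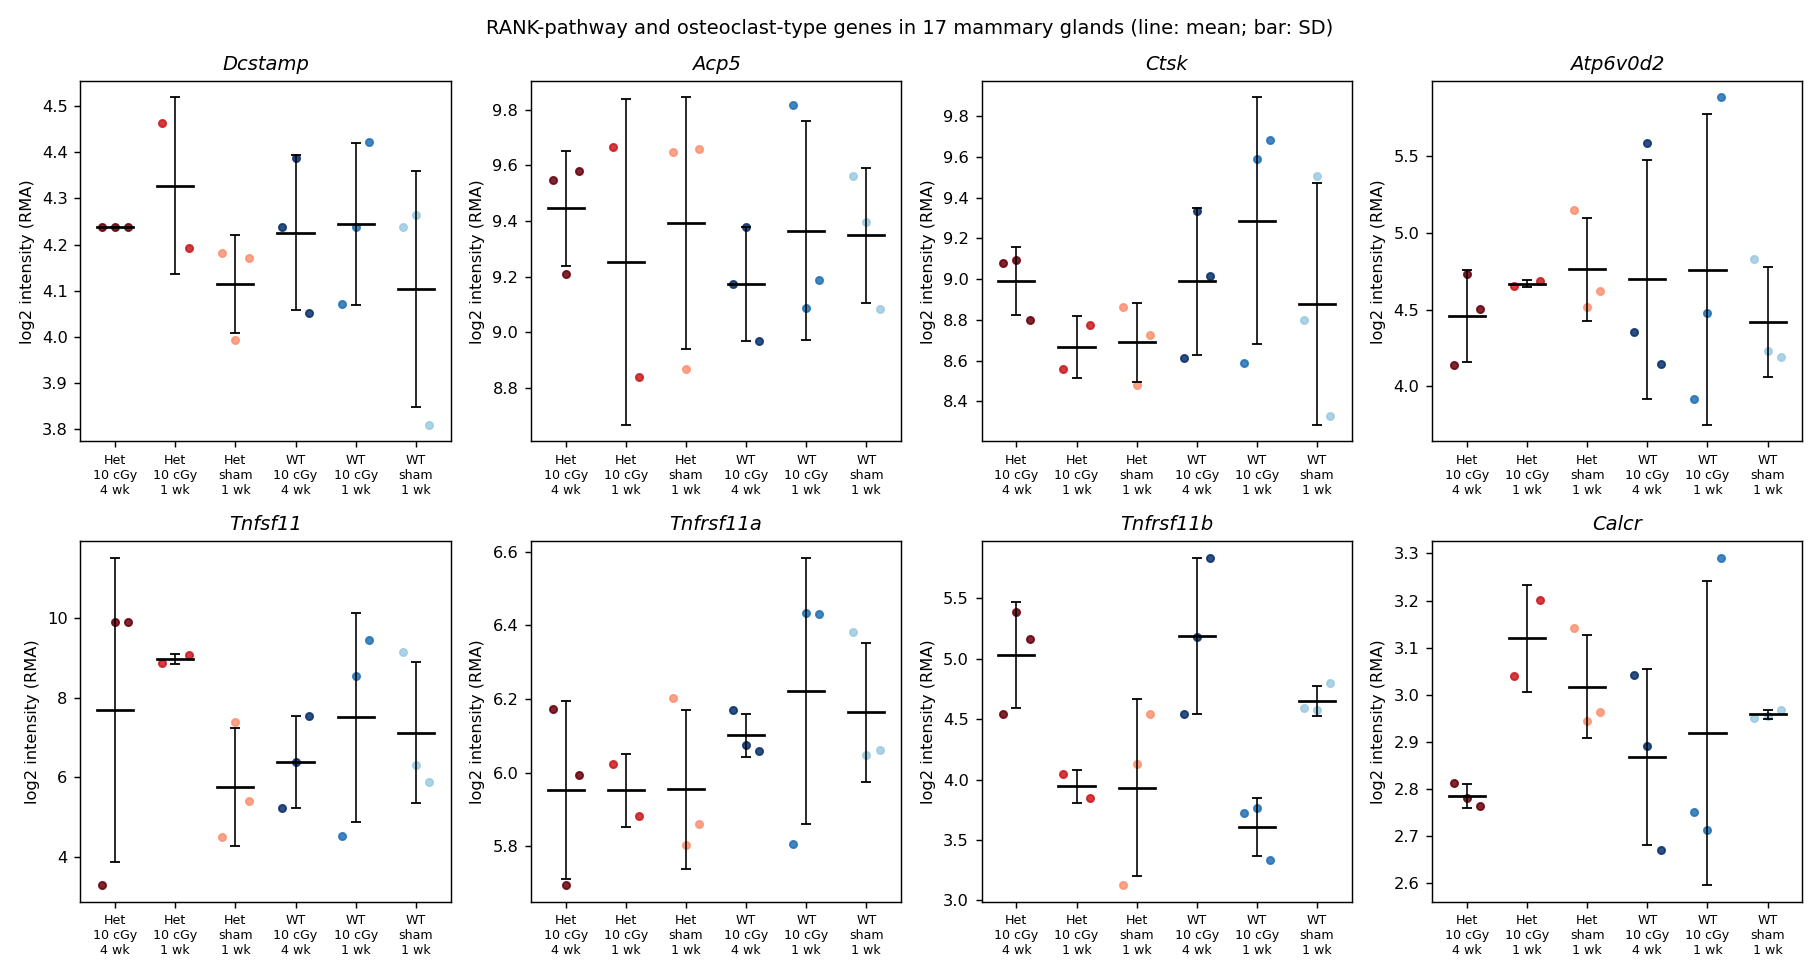
Log2 level of each of the 8 genes in every gland, with heterozygous groups left of wild-type groups. Each point is 1 gland and the horizontal line is the group mean, with a vertical bar of 1 SD either side. Tnfrsf11b lies between 4.54 and 5.84 in the 6 glands at 4 weeks and between 3.34 and 4.04 in the 5 glands at 1 week, and Tnfsf11 spreads from 3.28 to 9.91.

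No association of Dcstamp passed in glands. Within gland groups Dcstamp had r = 0.66 with Ctsk (rho = 0.58, exact permutation p = 0.0768, adjusted p = 0.343), 0.65 with Atp6v0d2 (rho = 0.69, exact permutation p = 0.0201, adjusted p = 0.214), 0.44 with Acp5 (rho = 0.45, exact permutation p = 0.140, adjusted p = 0.440) and 0.20 with Tnfsf11 (rho = 0.13, exact permutation p = 0.435, adjusted p = 0.729), over 17 glands. Without the 2 glands farthest from the Dcstamp median the first 3 were 0.48, 0.75 and 0.20. With no gene passing in glands (0% of 12944), these r describe the 17 arrays. Dcstamp was dim and had 1 identical level in the 3 heterozygous 4-week glands, which therefore add no covariation with Dcstamp. Acp5 had r = -0.13 with Ctsk and 0.01 with Atp6v0d2 in glands, against 0.72 and 0.68 in tumours. The tissues were not tested against each other. The 5 genes most like Dcstamp in glands were Cfap410 (r = 0.96), Dpp7 (0.94), Creg1 (0.92), Srpx (0.92) and Crtap (0.92), each with an adjusted exact permutation p of 0.147.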

How the data were processed

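Arrays with 45101 probe sets were made from 17 glands and 48 tumours, labelled from 80 ng and 100 ng of RNA. The authors deposited gland values as linear intensity and tumour values as log2 values, and the submitters' processing notes name RMA, without a version, for making them. RMA corrects background, normalizes between arrays and summarises probes. Gland intensity was converted to log2 here, and tissues were kept apart because scales and labelling differed. Dim genes were held back by the level filter alone.

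Of the probe sets, 34958 had 1 gene, 932 several and 9211 none in the platform annotation, and 99.4% of the first kind matched RefSeq. Each gene took its brightest probe set. Genes under the 40th percentile of probe-set means (4.15 in glands, 5.14 in tumours) were set aside, leaving 12945 and 12786 genes. Each tissue had 1 fit in R 4.3.3 with limma 3.58.1 (empirical Bayes with trend), two-sided, with Benjamini-Hochberg adjustment over all tested genes and a threshold of 0.05. The genotype average is the mean of the heterozygous minus wild-type differences after sham, at 1 week and at 4 weeks. Associations used Python 3.11.15 with two-sided permutation within groups (100000 in tumours, all 15552 arrangements in glands). In each tissue 8 members were each tested against all genes, and the p-values of each member were adjusted on their own. Both kinds of test were checked on simulated data.

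The 8 members and all gene lists were chosen with earlier results of these data known. Genes named are the 8 members, the 10 genes most like Dcstamp in tumours and 5 in glands, the 3 most like each other member in tumours, from each list the genes past the threshold or else the 2 with the smallest p, and markers that move with a result. Others are stated to be picked after their values were seen. Genes of the lists absent from the annotation used were left out.

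The labels do not say whether gland repeats are separate animals, so p-values may measure partly technical spread. Same-numbered arrays correlated at 0.112 to 0.316 between heterozygous 4-week and sham glands and at 0.123 to 0.216 between the wild-type ones, so the numbers may pair those groups, although no label says so. With the number as a block 0 members were called there, as without it. No 2 arrays were identical, and no scan dates or batches were given. Alternatives covered the filter, probe-set summary, normalization, an offset of 16 in glands, the repeat block, arrays left out, rank correlation and marker means. Those on the filter at gene means, on the association without a filter, on single tumours and on the tumour with conflicting labels were added after seeing the data.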

Additional observations from a re-analysis of the deposited data

Results flagged for a closer look

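In groups of 4 to 10 tumours, the gap of the highest or lowest tumour to its neighbour was set against the range of the group. Of 24 combinations of gene and group, 4 had an extreme tumour by Dixon's criterion at the 95% level, which chance gives in about 1 in 20 groups. In all 4 the highest tumour stood out.

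Dcstamp had a gap of 0.709 of the range for sham wild-type-host tumour 7, at 7.04 against a group median of 5.11. The other members were not extreme in that tumour, where Ctsk ranked 27 and Atp6v0d2 41 of 48. Acp5 had a gap of 0.671 for irradiated heterozygous-host tumour 11, at 12.70 against a group median of 10.16. Calcr had a gap of 0.655 for sham heterozygous-host tumour 2, at 3.75 against a median of 3.29, although Calcr was at the bottom of the measured range. Tnfsf11 had a gap of 0.533 for sham wild-type-host tumour 5, at 6.11 against a median of 4.25.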

How the results depend on the processing

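Of 367 alternative counts of members called, 352 stayed within 1.5 times the reported count and 15 moved. Of 2323 alternative values of member differences 2321 kept their side of the threshold and 2, both of Tnfrsf11b at 4 weeks minus 1 week, passed it. Nothing is read from those 2, because Tnfrsf11b passed the level filter through its 4-week glands. No called value changed sign, but 159 values, from 58 of 107 differences, had the opposite sign to the reported one, all of them of differences that did not pass. Leaving out 1 gland at a time, 0 to 1 members were called for 4 weeks minus 1 week. For irradiated heterozygous minus irradiated wild-type hosts, where the rule's own gene was past the threshold, a count of 1 from which nothing is read, it became 0 with the filter at the 60th percentile, 0 with the filter at the 40th percentile of gene means, 0 with the repeat number as a replicate block, and 0 to 1 with 1 tumour left out (0 without irradiated heterozygous-host tumour 11). Stricter filters removed 2 of the 6 members from the test, Dcstamp among them, by construction. Same-numbered tumours of different groups correlated at -0.43 to 0.63, and in 0 of 5 group pairs were all r above 0.1, so the tumour numbers do not pair. In the other gland group pairs same-numbered arrays reached down to -0.48, and the block changed no other count of members called.

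The call of Acp5 with Dcstamp in tumours, 1 member, became 0 without the 2 farthest tumours, by Spearman's rho, with the macrophage or the fibroblast marker mean taken out, with no filter (adjusted p = 0.0627), and without the tumour with conflicting labels (adjusted p = 0.0501). It was 0 as well in each fit without tumour 2 or tumour 11. It held with quantile normalization (r = 0.60, adjusted p = 0.0426), with the mean of probe sets (adjusted p = 0.0397) and as a limma slope of 0.44 (SE 0.09, limma adjusted p = 0.0272). Over the 11 alternatives the value was 0.37 to 0.60 and the adjusted p 0.0272 to 0.187. The 4 member pairs called by Pearson's r became 2 by Spearman's rho. The causes of these shifts were not tested. Array number limits precision, with 6 to 23 tumours and 2 to 3 glands a group, and Calcr, Tnfsf11 in tumours and Dcstamp in glands were near the lower end of the signal, as was Tnfrsf11b in 1-week glands. The Dcstamp medians of irradiated and sham wild-type hosts, 5.09 and 5.11, lay under the tumour filter level of 5.14.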
